A study of Homo sapiens with 10 samples.

Results

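The genes described here are 52 host genes of the interferon and innate response in Panc1 cells, an established line grown from a human pancreatic ductal carcinoma, after adenoviral transduction. The list was fixed by name: sensors of foreign nucleic acid, interferon beta and its transcription factors, ISG15 and the enzymes that attach and remove it, antiviral effectors, other interferon-stimulated genes, chemokines, genes of the NF-kappaB pathway and genes of antigen processing. A gene was measured by the transcript clusters, the array's unit for a gene, that carry its symbol alone. Of the 52 genes, 51 had such a cluster (54 clusters in all) among the 20961 clusters with a gene symbol that were tested, and STAT2 was not analysed here. TAP1, PSMB8 and PSMB9 had 2 clusters each and are given by the brighter one.

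Cells received adenovirus at a multiplicity of infection of 150, and total RNA was harvested 48 h later and hybridized to Affymetrix Human Gene 1.0 ST arrays. The virus carried 1 of 5 inserts: the KLF11 mutant A347S, which no longer couples to WD40 proteins, the mutant Δ486, which is cut off from HP1 and histone methyltransferases, the mutant EAPP, which no longer binds the Sin3/histone deacetylase complex, wild type KLF11, or none, the empty vector (EV). Each group had 2 arrays, 10 in all. The sample titles number them as biological replicates, whereas the extract protocol and the methods describe technical duplicates of RNA pooled from 3 cultures, so each error and p-value below measures the spread between arrays and may leave out the variation between cultures. All 5 groups carried adenovirus, EV included, and untransduced cells were not analysed here, so the comparisons do not measure the response to the virus itself. The constructs share 1 parent line, 1 dose and 1 time.

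In this response, viral RNA is bound by RIG-I and MDA5 and viral DNA by cGAS, which signal through MAVS and STING to IRF3 and NF-kappaB. These factors switch on interferon beta, whose receptor acts through JAK kinases on the interferon-stimulated response element in the promoters of antiviral genes. Adenovirus delivers double-stranded DNA to the nucleus and is known to set off parts of this pathway in many cell types. KLF11 is a zinc finger transcription factor that binds GC-rich promoter sites and can repress or activate genes through the chromatin partners it recruits.

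The arrays were alike in scale. Array medians lay between 6.81 and 6.87 on the log2 scale, and arrays of the same group correlated across clusters with r = 0.996 to 0.997. The KLF11 cluster stood at 8.85 and 8.88 with A347S, 8.72 and 8.83 with Δ486, 8.78 and 8.68 with EAPP and 8.82 and 8.85 with wild type KLF11, against 8.37 and 7.75 with EV, so every construct array lay above both EV arrays. By the threshold given below, its rise was called with A347S (0.81), Δ486 (0.71) and wild type KLF11 (0.77). With EAPP the change of 0.67 was not called, and the 2 EV arrays lay far apart. Epithelial keratins were bright with EV (KRT8 12.68, KRT18 13.17, KRT19 10.83), apart from KRT7 at 6.41, as was VIM at 12.52, a mesenchymal gene known to be expressed in this line. Of the 6 measured leukocyte markers, PTPRC, CD3E, LYZ and ITGAM stood at 3.52 to 5.55 with EV, within the range of unexpressed clusters described next, and CD68 and CD14 stood at 9.73 and 5.77. CD14 rose by 0.59 with A347S (limma, adjusted p = 0.00397), from an EV level at the edge of that range. It was 1 of 6 markers, beside 3.63% of all clusters called as higher. KRT19 fell by 1.51 with A347S and by 0.99 with wild type KLF11, beside 5.35% and 1.78% of all clusters called as lower. With Δ486, 1 of these 4 keratins also fell, beside 3.23% of all clusters, and the lowest change was -1.06. The part of these changes in the results below was not tested. In RNA from whole cultures, fewer cells of a type and less RNA per cell cannot be told apart.

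With EV, the levels of the genes ran from 3.66 to 11.76. Some clusters stood no higher than genes the cells do not use, and others lay above that level. As a reading of unexpressed clusters, the 354 clusters of olfactory receptor genes had a median EV level of 4.42 and a 95th percentile of 5.77. Of the 51 genes, 33 lay above that percentile with EV and 18 did not. Some of the 33 lay close to it, such as CXCL8 at 5.91. All 4 measured genes of the NF-kappaB list and all 4 of antigen processing lay above it, whereas 3 of 6 sensors, 2 of 3 genes of the ISG15 list, 9 of 16 antiviral effectors, 5 of 8 other interferon-stimulated genes and 2 of 5 chemokines and cytokines did so. Since probes differ in brightness, the level of one cluster says nothing of its amount against another.

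**Figure D1:**
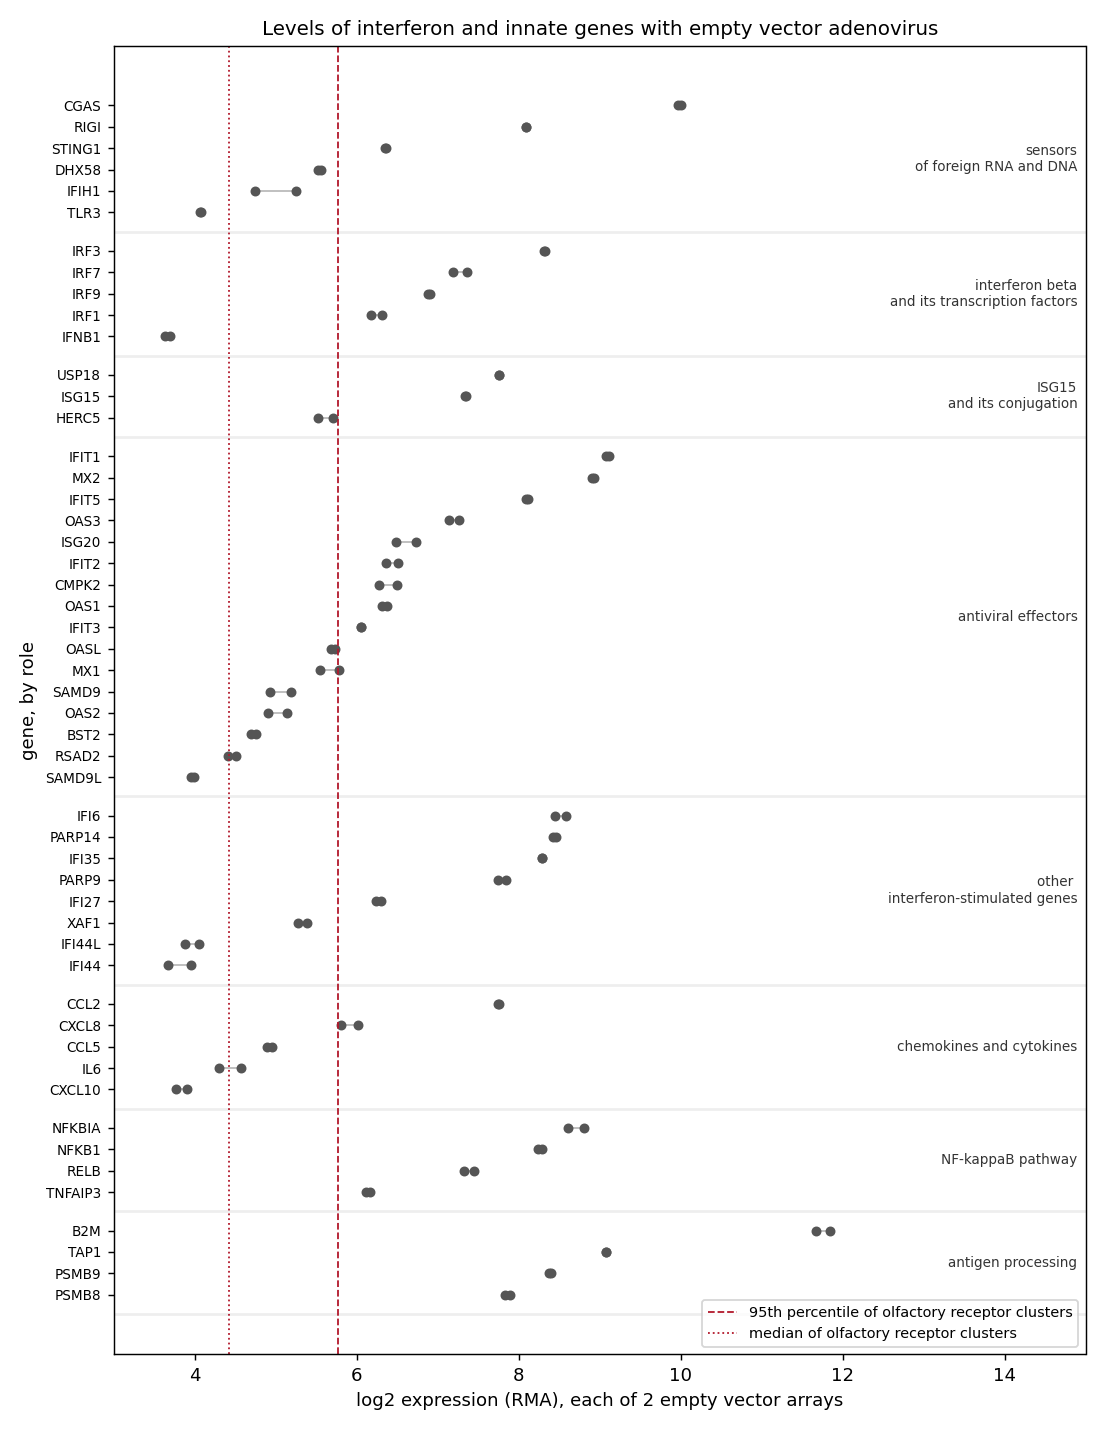
Log2 expression of the 51 measured genes on each of the 2 EV arrays (points joined by a line), ordered within each role by level. The dashed line is the 95th percentile (5.77) and the dotted line the median (4.42) of 354 olfactory receptor clusters. Interferon beta (IFNB1), TLR3, CXCL10 and IL6 lie left of the dashed line, and CGAS and B2M lie far to the right of it.

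The interferon beta gene itself, IFNB1, sat at the level of unexpressed clusters in every group. It stood at 3.32 and 3.61 with A347S, 4.14 and 3.73 with Δ486, 3.42 and 3.84 with EAPP and 3.94 and 3.62 with wild type KLF11, against 3.63 and 3.69 with EV. All 10 arrays thus lay below the median of the olfactory receptor clusters, and only the Δ486 arrays stayed above both EV arrays while the A347S arrays stayed below them. CXCL10, a chemokine induced by interferon, was likewise at the level of unexpressed clusters and stood at 4.05 and 3.87 with A347S, 3.77 and 3.82 with Δ486, 3.65 and 3.98 with EAPP and 4.01 and 3.85 with wild type KLF11, against 3.91 and 3.77 with EV. Against EV, no construct moved IFNB1 at an unadjusted p under 0.05, but the intervals were wide: the 95% interval of the difference ran from -0.59 to 0.21 with A347S, from -0.12 to 0.68 with Δ486, from -0.43 to 0.37 with EAPP and from -0.28 to 0.52 with wild type KLF11.

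Against EV, few of the genes passed the threshold of an adjusted p under 0.05 (limma, Benjamini-Hochberg over all tested clusters) with a fold of at least 1.5, which is 0.585 on the log2 scale. With A347S, 1 of 51 genes rose and none fell, beside 8.98% of all clusters called, 3.63% as higher and 5.35% as lower. With Δ486, 1 of 51 rose and none fell, beside 5.61% of all clusters called, 2.38% as higher and 3.23% as lower. With EAPP, limma called 0 of 51, beside 0.00477% of all clusters. At an unadjusted limma p under 0.05 there were 4 (HERC5, IFI35, PARP14 and TNFAIP3, against 8.73% of all clusters), and 0 had both that and the fold (0.181% of all clusters). With wild type KLF11, 2 of 51 rose and none fell, beside 3.99% of all clusters called, 2.21% as higher and 1.78% as lower. The genes called were HERC5 with A347S, Δ486 and wild type KLF11, and IFI27 with wild type KLF11. The share of called genes was thus below or close to that of all clusters in each comparison.

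Smaller differences were more frequent. At an adjusted p under 0.05 with no fold threshold, 4 genes were higher with A347S (CGAS, HERC5, USP18 and OAS3, against 11.5% of all clusters) and 9 were lower (RIGI, IRF9, ISG15, IFIT1, IFIT2, IFI35, PARP14, NFKB1 and NFKBIA, against 16.9%), 13 of 51 in all, against 28.4%. With Δ486, 4 were higher (CGAS, HERC5, USP18 and OAS3, against 9.07%) and 5 lower (RIGI, IRF9, IFI35, PARP14 and TNFAIP3, against 13.3%), 9 of 51 against 22.4%. With wild type KLF11, 5 were higher (CGAS, HERC5, USP18, OAS3 and IFI27, against 7.56%) and 1 lower (IRF9, against 9.75%), 6 of 51 against 17.3%. With EAPP there were 0, against 0.00477%. These comparisons share the EV arrays, so a deviation of those 2 arrays enters each of them.

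The median change of the 51 genes was -0.01 with A347S, -0.02 with Δ486, -0.01 with EAPP and -0.02 with wild type KLF11, beside 0.01, 0.02, 0.00 and -0.02 over all clusters. By the spread between arrays, the 95% interval of the change lay inside 1.5-fold in either direction for 41 of 51 genes with A347S, 44 with Δ486, 47 with EAPP and 45 with wild type KLF11. The 51 include the 18 genes within the range of unexpressed clusters with EV, for which a narrow interval does not bound a change in expression.

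**Figure D2:**
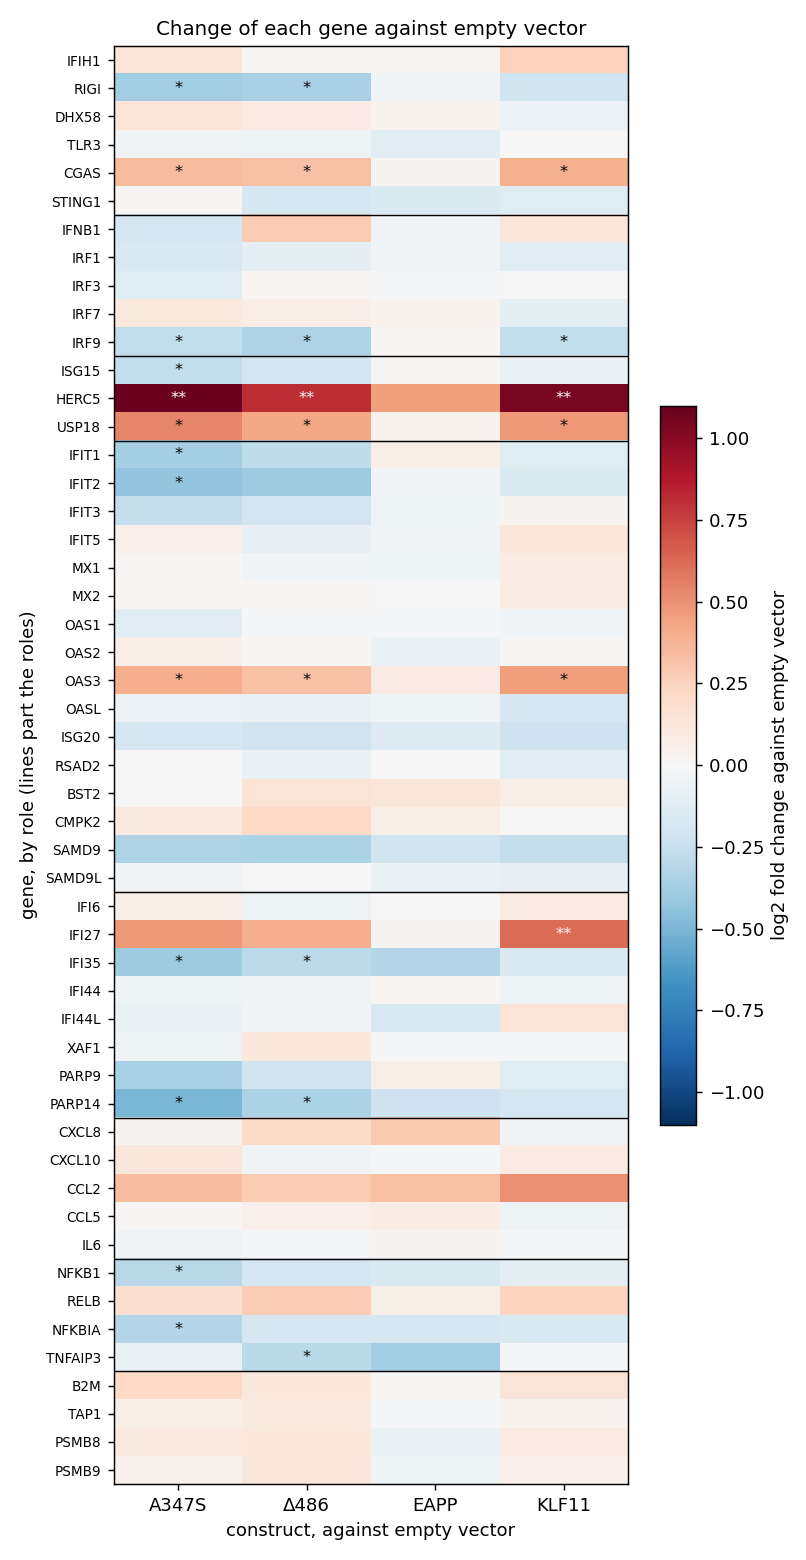
Log2 fold change of the 51 genes against EV with A347S, Δ486, EAPP and wild type KLF11, by role, on a colour scale from blue (lower than EV) to red (higher than EV). A single star marks an adjusted p under 0.05 (limma) and a double star marks that p with a fold of at least 1.5, which HERC5 has with 3 constructs and IFI27 with wild type KLF11.

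HERC5 gave the largest rise of the 51 genes with A347S, Δ486 and wild type KLF11. It encodes the main ligase that attaches ISG15, a ubiquitin-like protein, to new proteins in infected human cells. The HERC5 cluster stood at 6.51 and 6.88 with A347S, 6.33 and 6.54 with Δ486, 6.13 and 6.02 with EAPP and 6.68 and 6.64 with wild type KLF11, against 5.71 and 5.53 with EV. All 8 construct arrays lay above both EV arrays, and the EAPP arrays lay below all arrays of the other constructs. The EV mean of 5.62 was within the range of unexpressed clusters, so each fold against EV is taken from that range. The log2 change was 1.08 ± 0.13 (SE) with A347S, a fold of 2.11 (adjusted p = 0.000233), 0.82 ± 0.13 with Δ486, a fold of 1.76 (adjusted p = 0.00169), and 1.04 ± 0.13 with wild type KLF11, a fold of 2.06 (adjusted p = 0.00084). With EAPP the change was 0.46, with a 95% interval from 0.17 to 0.74, and the adjusted p was 0.342.

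The partners of HERC5 in the ISG15 cycle differed from it and from each other. USP18, the protease that takes ISG15 off its targets and dampens interferon receptor signalling, stood at 8.31 and 8.29 with A347S, 8.19 and 8.18 with Δ486, 7.67 and 7.93 with EAPP and 8.17 and 8.31 with wild type KLF11, against 7.76 on both EV arrays. Its change of 0.54 with A347S, of 0.42 with Δ486 and of 0.48 with wild type KLF11 had an adjusted p of 0.0019, 0.00982 and 0.00722 but fell short of the fold threshold, and the EAPP arrays lay on either side of EV. ISG15 itself, the modifier, was not higher on any array of A347S, Δ486 or wild type KLF11. It stood at 7.08 and 7.07 with A347S, 7.23 and 7.03 with Δ486, 7.32 and 7.39 with EAPP and 7.27 on both wild type KLF11 arrays, against 7.34 and 7.35 with EV, and only its change of -0.27 with A347S had an adjusted p under 0.05 (0.0328).

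**Figure D3:**
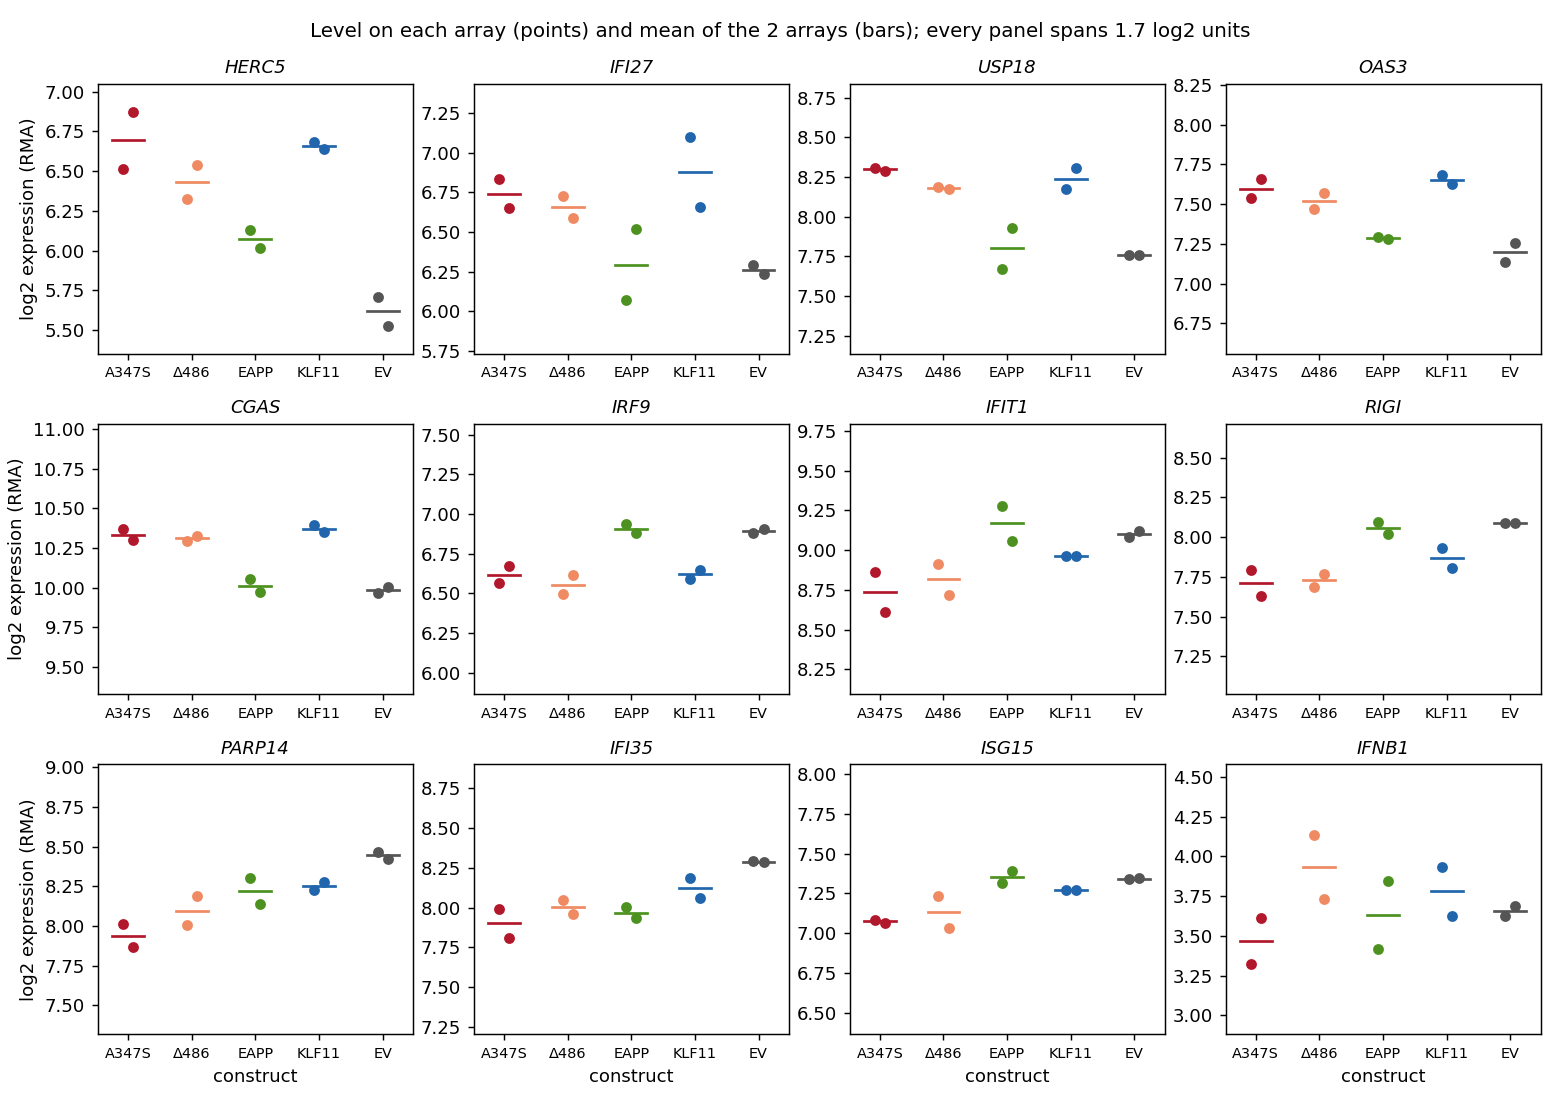
Log2 expression of 12 of the genes on each array (points) with the mean of the 2 arrays (bars) for A347S, Δ486, EAPP, wild type KLF11 and EV, each panel spanning 1.7 log2 units. HERC5, USP18, OAS3 and CGAS lie higher with A347S, Δ486 and wild type KLF11 than with EV, IRF9 lies lower, and the EAPP means of USP18, OAS3, CGAS and IRF9 lie within 0.09 of EV.

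The promoters of HERC5 and ISG15 both hold the core of the interferon-stimulated response element, as do those of IFI27, OAS3 and IFIT1. These 5 are set side by side because HERC5 rose with 3 constructs, IFI27 rose with wild type KLF11, OAS3 was higher below the fold threshold, and IFIT1 and ISG15 were not higher with A347S, Δ486 or wild type KLF11. Each sequence is the 160 bases before the gene's start on the strand of the gene, from RefSeq on GRCh38.p14, all 5 genes lying on the plus strand, and capitals mark matches to the searched core (GAAA, any 2 bases, GAAA) or its reverse complement.
HERC5 (chr4:88456959-88457118): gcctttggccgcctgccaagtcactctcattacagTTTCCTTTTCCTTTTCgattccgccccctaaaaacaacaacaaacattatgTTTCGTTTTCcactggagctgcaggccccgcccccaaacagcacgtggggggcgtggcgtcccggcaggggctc
IFI27 (chr14:94110576-94110735): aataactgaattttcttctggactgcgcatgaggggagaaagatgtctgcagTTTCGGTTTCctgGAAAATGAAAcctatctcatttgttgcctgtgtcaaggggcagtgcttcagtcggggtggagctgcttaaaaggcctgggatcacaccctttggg
OAS3 (chr12:112938314-112938473): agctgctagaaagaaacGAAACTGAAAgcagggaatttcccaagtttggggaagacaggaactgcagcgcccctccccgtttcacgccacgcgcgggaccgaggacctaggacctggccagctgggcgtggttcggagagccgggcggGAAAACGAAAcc
IFIT1 (chr10:89392463-89392622): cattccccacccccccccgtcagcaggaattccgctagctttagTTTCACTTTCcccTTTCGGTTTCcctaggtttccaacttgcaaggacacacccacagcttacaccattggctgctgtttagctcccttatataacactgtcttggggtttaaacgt
ISG15 (chr1:1013337-1013496): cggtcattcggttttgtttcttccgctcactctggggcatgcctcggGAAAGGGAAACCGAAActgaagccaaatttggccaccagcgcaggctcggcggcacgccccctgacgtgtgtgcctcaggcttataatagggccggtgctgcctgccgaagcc
HERC5 has 3 matches in these bases, 2 of them overlapping, and the other 4 genes have 2 each, which overlap in ISG15. A match is a description of the letters and not a measured site.

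Over the window from 250 bases before to 50 after the start, 38 of the 51 genes had a promoter in the RefSeq table, and 20 of these (52.6%) held the core on either strand, against 3.65% of all 27305 promoters of the same length. The genes were listed by name as interferon and innate genes, so this excess was built into the list and is no result about KLF11. The 13 genes without a promoter entry, USP18 among them, were left out. A loose NF-kappaB site (GGG, any 5 bases, CC, on either strand, which overlaps its own reverse complement) was held by 65.8% of the 38, against 58.0% of all promoters. The letters CCCCGC, a site known for KLF11, were held by 36.8%, against 41.2% of all, and the related site CCCCAC by 36.8%, against 32.5%. Both called genes, HERC5 and IFI27, were among the 20 with the response element core. With wild type KLF11, these 20 had a median change of 0.07 and ran from -0.26 to 1.04, while the 18 without it had a median of -0.07 and ran from -0.27 to 0.12. With A347S the medians were 0.01 with the core and -0.11 without, with Δ486 -0.04 and -0.05, and with EAPP -0.01 and -0.03. Most promoters with the core thus belonged to genes that did not pass the threshold.

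**Figure D4:**
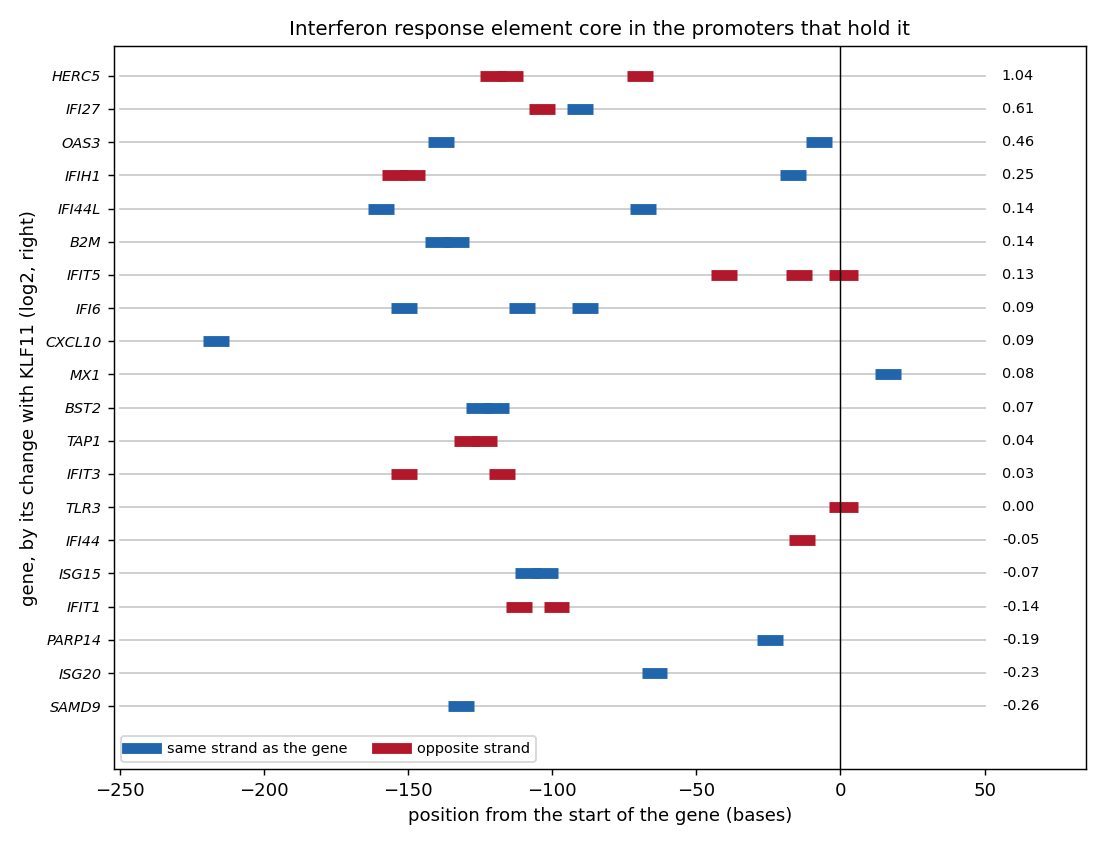
Position of the interferon response element core in bases from the gene start, in the 20 promoters that hold it, from 250 before to 50 after the start, with matches on the strand of the gene in blue and on the opposite strand in red. Genes run down by their log2 change with wild type KLF11 against EV, printed at the right, from 1.04 for HERC5 to -0.26 for SAMD9.

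Among the antiviral effectors, 0 of 16 passed the threshold with any construct (limma, and likewise the plain t-test). Of them, 5 had an unadjusted limma p under 0.05 with at least 1 construct, a rule that 48.2% of all clusters and 22 of the 51 genes met. OAS3, which makes the 2'-5' oligoadenylates that activate RNase L on double-stranded RNA, was the effector with the smallest p. It stood at 7.54 and 7.66 with A347S, 7.47 and 7.57 with Δ486, 7.29 and 7.28 with EAPP and 7.68 and 7.63 with wild type KLF11, against 7.14 and 7.26 with EV. Every construct array lay above both EV arrays, the EAPP ones by the least. The change was 0.40 with A347S (adjusted p = 0.00405), 0.32 with Δ486 (0.0168) and 0.46 with wild type KLF11 (0.00439), and 0.09 with EAPP (0.813). The related synthetases OAS1 and OAS2 and the RNase-L-independent OASL ranged from -0.19 to 0.07 over the 4 constructs, each at an adjusted p above 0.05.

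The IFIT genes, of which IFIT1 encodes a protein that binds viral RNA lacking host cap marks, were lower where they differed. IFIT1 stood at 8.86 and 8.61 with A347S, 8.92 and 8.72 with Δ486, 9.28 and 9.06 with EAPP and 8.96 on both wild type KLF11 arrays, against 9.08 and 9.12 with EV. The arrays of A347S, Δ486 and wild type KLF11 all lay below EV and the EAPP arrays straddled it, and only the change of -0.36 with A347S had an adjusted p under 0.05 (0.0332). IFIT2 likewise differed by -0.44 with A347S (adjusted p = 0.0384) and by -0.39 with Δ486 (0.0689). IFIT3 and IFIT5 ranged from -0.26 to 0.13. The GTPases MX1 and MX2, which restrict many viruses, differed from EV by -0.04 to 0.08 over the 4 constructs, and MX2 was plainly expressed, with an EV mean of 8.91. RSAD2 (viperin), BST2 (tetherin), SAMD9 and SAMD9L stayed within the range of unexpressed clusters with EV, at 3.97 to 5.05. ISG20, an exonuclease, and CMPK2, a mitochondrial nucleotide kinase, differed by -0.23 to 0.22.

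Of the other interferon-stimulated genes, IFI27 was the only member of 8 that passed the threshold, and only with wild type KLF11. IFI27, a small membrane protein of mitochondria that is among the most strongly interferon-induced genes in human cells, stood at 6.83 and 6.65 with A347S, 6.73 and 6.59 with Δ486, 6.07 and 6.52 with EAPP and 7.10 and 6.66 with wild type KLF11, against 6.29 and 6.23 with EV. The arrays of A347S, Δ486 and wild type KLF11 lay above both EV arrays, and the EAPP arrays lay on either side. The change with wild type KLF11 was 0.61 ± 0.17 (SE), a fold of 1.53 (adjusted p = 0.0311), which is close to both thresholds. It rests on the first wild type array: without it the change was 0.40 with an adjusted p of 0.211, and without the first or the second EV array the adjusted p was 0.104 or 0.131. The changes of 0.48 with A347S and 0.40 with Δ486 had an adjusted p of 0.0571 and 0.123.

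PARP14 and IFI35 ran below EV on every construct array. PARP14, an ADP-ribosyltransferase that pairs with PARP9 in the interferon response, stood at 8.01 and 7.87 with A347S, 8.01 and 8.19 with Δ486, 8.30 and 8.14 with EAPP and 8.23 and 8.28 with wild type KLF11, against 8.47 and 8.42 with EV. Its change was -0.50 with A347S (adjusted p = 0.00258) and -0.35 with Δ486 (0.0234), short of the fold threshold, and -0.22 with EAPP and -0.19 with wild type KLF11, both with an adjusted p above 0.05. IFI35, a leucine zipper protein induced by interferon, stood at 7.99 and 7.81 with A347S, 8.05 and 7.96 with Δ486, 8.005 and 7.93 with EAPP and 8.19 and 8.06 with wild type KLF11, against 8.29 on both EV arrays. The difference had an adjusted p under 0.05 with A347S (-0.39, 0.00744) and Δ486 (-0.29, 0.0393). IFI6, bright at 8.51 with EV, and IFI44, IFI44L and XAF1, all within the range of unexpressed clusters, differed by -0.17 to 0.14. PARP9 differed by -0.36 with A347S (adjusted p = 0.0531) and by -0.22 to 0.07 with the other constructs.

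Among the sensors, 0 of 6 passed the threshold with any construct (limma). At an unadjusted limma p under 0.05 with at least 1 construct there were 3 (48.2% of all clusters). Below the threshold, the DNA sensor and an RNA sensor differed in opposite directions. CGAS, which makes the second messenger cGAMP on binding DNA, stood at 10.37 and 10.30 with A347S, 10.29 and 10.33 with Δ486, 10.06 and 9.97 with EAPP and 10.39 and 10.35 with wild type KLF11, against 9.97 and 10.001 with EV. The 6 arrays of A347S, Δ486 and wild type KLF11 lay above both EV arrays, and the EAPP arrays overlapped EV. The change was 0.35 with A347S (adjusted p = 0.0046), 0.33 with Δ486 (0.00927) and 0.39 with wild type KLF11 (0.00541), and 0.03 with EAPP. RIGI, the cytosolic sensor of 5' triphosphate RNA, stood at 7.79 and 7.63 with A347S, 7.69 and 7.77 with Δ486, 8.09 and 8.02 with EAPP and 7.93 and 7.80 with wild type KLF11, against 8.09 on both EV arrays. Only the EAPP arrays reached EV, and the change was -0.38 with A347S (adjusted p = 0.0074), -0.36 with Δ486 (0.0128) and -0.22 with wild type KLF11 (0.108). STING1, the receptor of cGAMP, differed by -0.19 to 0.02, and IFIH1 (MDA5), DHX58 (LGP2) and TLR3 lay within the range of unexpressed clusters with EV and differed by -0.13 to 0.25.

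The transcription factors of the response were expressed with EV, and 0 of the 4 measured passed the threshold with any construct (limma). IRF9 alone had an unadjusted limma p under 0.05 with at least 1 construct (48.2% of all clusters). IRF9, a DNA-binding factor of the interferon response, stood at 6.56 and 6.67 with A347S, 6.497 and 6.61 with Δ486, 6.94 and 6.88 with EAPP and 6.59 and 6.65 with wild type KLF11, against 6.88 and 6.90 with EV. The 6 arrays of A347S, Δ486 and wild type KLF11 lay below both EV arrays, with a change of -0.27 (adjusted p = 0.0242), -0.34 (0.0117) and -0.27 (0.0378). IRF1, a factor induced by interferon gamma, stood at 6.05 and 6.09 with A347S, 6.27 and 5.99 with Δ486, 6.31 and 6.10 with EAPP and 6.13 and 6.10 with wild type KLF11, against 6.17 and 6.31 with EV, and its change of -0.17 to -0.04 stayed at an unadjusted p above 0.05. IRF3, which starts the transcription of interferon beta, and IRF7, which amplifies it, differed by -0.13 to 0.11.

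The chemokines and cytokines did not pass the threshold with any construct (0 of 5 by limma). At an unadjusted limma p under 0.05 with at least 1 construct there was 1, CCL2 (48.2% of all clusters). CCL2, which attracts monocytes, stood at 8.04 and 8.13 with A347S, 8.06 and 8.002 with Δ486, 8.39 and 7.75 with EAPP and 8.27 and 8.23 with wild type KLF11, against 7.76 and 7.74 with EV. All but 1 of the 8 construct arrays lay above EV, the EAPP arrays differed most between themselves, and the change with wild type KLF11 was 0.50 with a 95% interval from 0.14 to 0.86 (adjusted p = 0.0635). CXCL8, which attracts neutrophils, stood at 5.77 and 6.10 with A347S, 6.07 and 6.16 with Δ486, 6.37 and 6.02 with EAPP and 5.98 and 5.75 with wild type KLF11, against 5.80 and 6.02 with EV. Its arrays overlapped EV with A347S and wild type KLF11. CCL5 and IL6 lay within the range of unexpressed clusters with EV, at 4.92 and 4.44, and differed by -0.06 to 0.08.

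In the NF-kappaB pathway, the inhibitors were the members with the smallest p, and 0 of 4 genes passed the threshold with any construct (limma). Of them, 4 had an unadjusted limma p under 0.05 with at least 1 construct (48.2% of all clusters). NFKBIA, which holds NF-kappaB in the cytoplasm, stood at 8.36 and 8.41 with A347S, 8.59 and 8.46 with Δ486, 8.60 and 8.45 with EAPP and 8.51 and 8.57 with wild type KLF11, against 8.80 and 8.61 with EV. Each construct array lay below both EV arrays, and the change of -0.32 with A347S had an adjusted p of 0.0257. TNFAIP3 (A20), a ubiquitin-editing enzyme that ends NF-kappaB signalling, stood at 6.12 and 5.99 with A347S, 5.77 and 5.92 with Δ486, 5.81 and 5.71 with EAPP and 6.14 and 6.10 with wild type KLF11, against 6.16 and 6.12 with EV. It differed by -0.29 with Δ486 (adjusted p = 0.0291), by -0.38 with EAPP (0.24) and by -0.02 with wild type KLF11. NFKB1, the p105 and p50 subunit gene, differed by -0.30 with A347S (adjusted p = 0.0267), and RELB, a subunit of the noncanonical pathway, by 0.06 to 0.27.

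The genes of antigen processing were bright, and 0 of 4 passed the threshold with any construct (limma). At an unadjusted limma p under 0.05 with at least 1 construct there was 1 (48.2% of all clusters). B2M, the light chain of class I molecules, stood at 11.99 and 11.97 with A347S, 11.80 and 11.95 with Δ486, 11.81 and 11.74 with EAPP and 11.98 and 11.82 with wild type KLF11, against 11.85 and 11.67 with EV. Only the A347S arrays lay above both EV arrays, and the change was 0.22 (adjusted p = 0.116). PSMB9, an immunoproteasome subunit, stood at 8.43 and 8.42 with A347S, 8.59 and 8.43 with Δ486, 8.31 and 8.35 with EAPP and 8.47 and 8.40 with wild type KLF11, against 8.37 and 8.39 with EV. It differed by -0.05 to 0.13, and the peptide transporter gene TAP1 and the subunit gene PSMB8 by -0.07 to 0.12.

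The mutants were also compared with wild type KLF11. With A347S, limma called 0 of 51 genes against wild type KLF11, beside 0% of all clusters. An unadjusted p under 0.05 was reached by 7, against 14.4% of all clusters. With Δ486, limma called 0 of 51, beside 0% of all clusters, and 2 had an unadjusted p under 0.05, against 10.5%. For HERC5 the difference from wild type KLF11 was 0.03 with A347S, with a 95% interval from -0.25 to 0.32, and -0.23 with Δ486, with an interval from -0.51 to 0.05. For IFI27 it was -0.14 with A347S (-0.51 to 0.24) and -0.22 with Δ486 (-0.59 to 0.15). The interval of the difference lay inside 1.5-fold either way for 50 of 51 genes with A347S and for 50 with Δ486. As against EV, these counts include the 18 genes within the range of unexpressed clusters with EV, and the intervals measure the spread between arrays only.

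EAPP, the mutant that does not couple to Sin3 and histone deacetylases, differed from wild type KLF11 in 1 called gene of 51, HERC5, which was lower, beside 2.51% of all clusters called and 1.75% called as lower. HERC5 fell by 0.59 ± 0.13 (SE) with EAPP against wild type KLF11, to 6.13 and 6.02, against 6.68 and 6.64 (adjusted p = 0.0181). This call was lost without either wild type KLF11 array (adjusted p = 0.113 and 0.0657) and without the second EAPP array (0.108). At an adjusted p under 0.05 with no fold threshold, IRF9 was higher (0.29, against 4.89% of all clusters higher) and CGAS (-0.36), HERC5, USP18 (-0.44), OAS3 (-0.37), IFI44L (-0.31) and TNFAIP3 (-0.36) were lower (6 of 51, against 5.86%), 7 of 51 in all against 10.8% of all clusters. IFI44L lay within the range of unexpressed clusters. Against EV, the same genes differed with EAPP by 0.03 (CGAS), 0.02 (IRF9), 0.46 (HERC5), 0.04 (USP18), 0.09 (OAS3), -0.17 (IFI44L) and -0.38 (TNFAIP3). The comparisons with EV and with wild type KLF11 use the same EAPP and wild type KLF11 arrays and are not separate measurements.

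The wider pathway was covered by 6 further lists of genes. Of the further interferon-stimulated genes (37 of 40 measured), SLFN5 and TRANK1 rose and 1 gene fell with A347S (3 of 37, against 8.98% of all clusters called), 1 rose with Δ486 and 1 with wild type KLF11 (against 2.38% and 2.21% called as higher), and 0 were called with EAPP. SLFN5, a member of the Schlafen family of interferon-induced growth regulators, stood at 6.98 and 7.25 with A347S, 6.70 and 6.81 with Δ486, 6.19 and 5.71 with EAPP and 7.21 and 7.06 with wild type KLF11, against 5.08 and 5.54 with EV, and all construct arrays lay above EV, whose mean of 5.31 was within the range of unexpressed clusters. It rose, from that range, 3.48-fold with A347S (adjusted p = 0.000115), by a log2 change of 1.44 with Δ486 (0.000652) and of 1.82 with wild type KLF11 (0.000377), and it fell by 1.18 with EAPP against wild type KLF11 (adjusted p = 0.00408). TRANK1 rose by 0.82 with A347S, also from an EV level in that range (4.90). The gene that fell was IFITM1, a membrane protein that blocks virus entry (-0.66), which is named after its value was seen.

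Of the interferon receptor and JAK-STAT genes (15 of 16 measured), 2 fell with A347S, 1 with Δ486, 0 with EAPP and 1 with wild type KLF11 against EV, and none rose. Of all clusters, A347S had 5.35% called as lower, Δ486 had 3.23% and wild type KLF11 had 1.78%. IFNGR2, a chain of the interferon gamma receptor, stood at 8.55 and 8.39 with A347S, 8.69 and 8.57 with Δ486, 9.12 and 9.23 with EAPP and 8.61 and 8.67 with wild type KLF11, against 9.39 and 9.25 with EV. It fell by 0.85 with A347S, by 0.69 with Δ486 and by 0.68 with wild type KLF11 (adjusted p = 0.000136, 0.000732 and 0.00122), with no overlap of those arrays and EV. SOCS3, an inhibitor of JAK kinases, fell by 0.68 with A347S, and JAK1 differed by -0.38 with A347S, short of the fold threshold.

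Of the sensor adaptors and kinases (21 of 22 measured), the gene that fell with A347S, with Δ486 and in wild type KLF11 cells was MAVS, 1 of 21 each time, beside the same 5.35%, 3.23% and 1.78% of all clusters called as lower. MAVS, the mitochondrial adaptor on which RIG-I and MDA5 converge, stood at 6.67 and 6.65 with A347S, 6.96 and 6.74 with Δ486, 7.64 and 7.45 with EAPP and 6.87 and 6.96 with wild type KLF11, against 7.64 and 7.41 with EV. The arrays of A347S, Δ486 and wild type KLF11 lay below both EV arrays and the EAPP arrays overlapped it. MAVS fell by 0.86 with A347S, by 0.68 with Δ486 and by 0.61 with wild type KLF11 (adjusted p = 0.000326, 0.00201 and 0.00469), and rose by 0.63 with EAPP against wild type KLF11 (adjusted p = 0.00657).

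Of the further NF-kappaB genes (24 of 26 measured), 2 fell with A347S (5.35% of all clusters), and 1 each fell with Δ486 (3.23%) and wild type KLF11 (1.78%). TNIP1, a partner of A20 that restrains NF-kappaB, fell by 0.87, 0.82 and 0.73 with these constructs, and RELA, the p65 subunit, fell by 0.60 with A347S and differed by -0.31 with wild type KLF11. Of the further antigen presentation genes (11 of 18 measured), 2 fell with A347S and 1 with Δ486, beside the same shares of all clusters: TAPBP (tapasin), which loads peptide on class I molecules, fell by 0.63 and 0.68, and PSME2, a proteasome activator subunit, by 0.60 with A347S. With A347S the 11 ran from -0.63 to -0.05 with a median of -0.25, beside 0.01 over all clusters. Of the 7 host receptors for adenovirus, ITGB5, an integrin chain used in adenovirus uptake, fell with A347S (by 0.64, 1 of 7 beside 5.35% of all clusters), and CXADR, the main attachment receptor, differed by -0.48 with A347S and -0.50 with Δ486, short of the fold threshold. Receptor levels at 48 h do not measure virus entry, and virus uptake was not measured here.

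**Figure D5:**
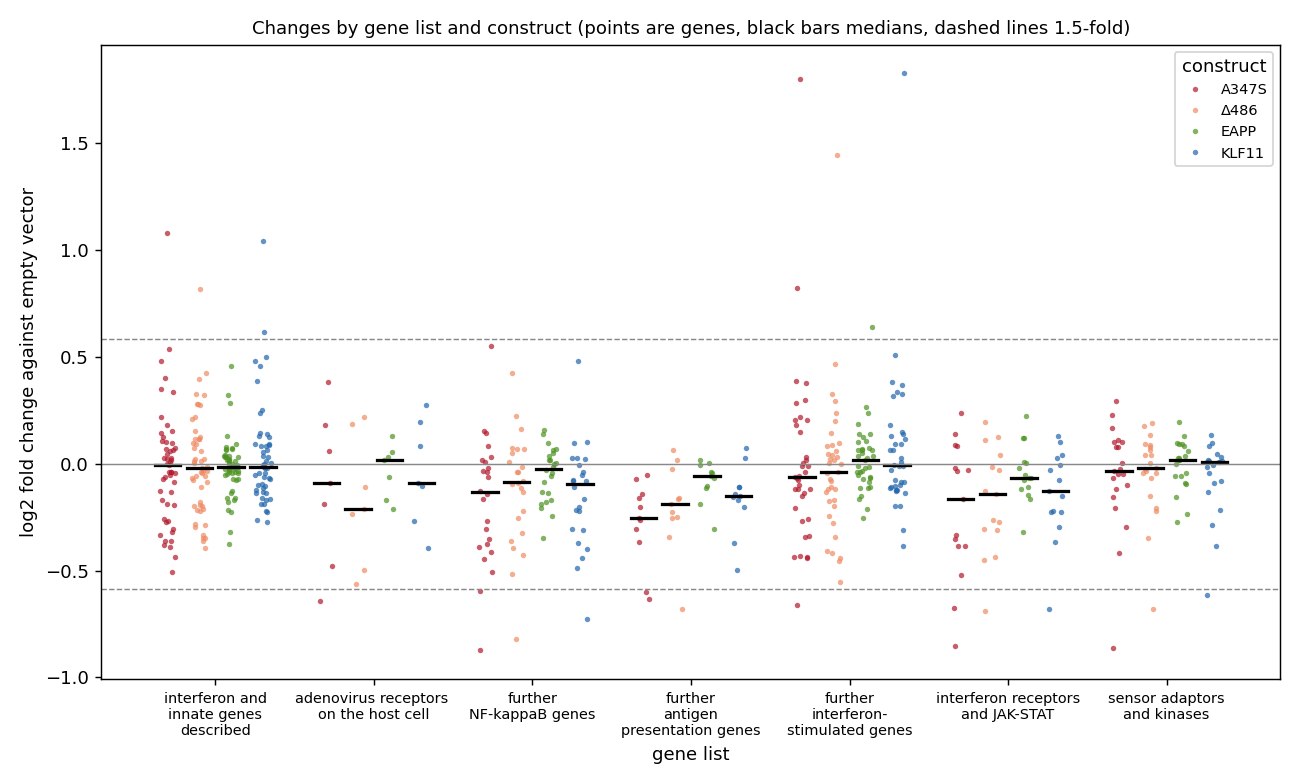
Log2 fold change against EV of the genes of each list (points) with A347S, Δ486, EAPP and wild type KLF11, with the median of each list as a black bar and dashed lines at 1.5-fold either way. The 51 genes lie around 0, and the points past the dashed lines include HERC5 at 1.08 and 1.04, SLFN5 at up to 1.82, and MAVS, IFNGR2 and TNIP1 below -0.585.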

How the data were processed

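Each of the 10 samples is a Human Gene 1.0 ST array of Panc1 RNA, grouped by its transduction label. The authors corrected background and normalized with Robust Multiarray Analysis (Partek 6.6 per the submitters' processing notes), and the deposited table holds these log2 values (1.85 to 14.56). For the array annotation, the build was not given in the sources used here. Clusters without a symbol (7908 of 28869) were left out, those with several symbols (1732) were tested and never named, and a gene with several clusters was represented by the brightest.

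A model with 5 group means was fitted to the 10 arrays together (limma 3.58.1, R 4.3.3), with 5 residual degrees of freedom and 4.54 more from moderation. Called clusters had a Benjamini-Hochberg adjusted p under 0.05 over 20961 clusters and a fold of at least 1.5. No detection call or scanner file was used, so the number of arrays limits the precision and the depth per sample does not apply. The genes given array by array are those called in at least 1 comparison and the 2 per role with the smallest p against EV. IFNB1, ISG15 and CXCL10 were added to them after their values were seen, and at most 3 are named per further list. Members and lists were chosen with earlier results of these data known. The fit was tested on simulated data. Alternatives covered thresholds, test, scaling between arrays, dim clusters, clusters tested, replicate block and each array left out. Plots used Python 3.11.15 and matplotlib 3.10.9.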

Additional observations from a re-analysis of the deposited data

How the results depend on the processing

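Over the 7 comparisons, 151 of 176 recomputed counts of called genes stayed within 1.5 times the value given and 25 did not. The total includes comparisons with a count of 0: EAPP against EV, and A347S and Δ486 against wild type KLF11. There, 0.00477%, 0% and 0% of all clusters were called, and 0 of 25, 0 of 25 and 0 of 26 counts moved. Against EV, 5 of 25 moved with A347S, 4 of 25 with Δ486 and 8 of 25 with wild type KLF11. For EAPP against wild type KLF11, 8 of 25 moved. None of the 5 called changes (HERC5 in 4 comparisons and IFI27 in 1) reversed, while the median change of the 51 genes with A347S, -0.0066, was 0.0011 with each array centred on its median. Without the fold threshold the counts were 13 with A347S, 9 with Δ486, 6 with wild type KLF11 against EV and 7 with EAPP against wild type KLF11. With a log2 change of at least 1.5, and equally with the plain t-test of 2 arrays against 2 after adjustment, all 4 of these counts were 0. At an unadjusted p under 0.05 and the same fold, the plain t-test gave HERC5 alone, in the same 4 comparisons, with no call for EAPP against EV. Without moderation the counts were 1 with wild type KLF11 (HERC5) and 0 with EAPP against wild type KLF11. Cyclic loess and quantile scaling each gave 2 with A347S (HERC5 and USP18) and 2 with EAPP against wild type KLF11 (HERC5 and IFI27), as did centring on the array median for the second of these, 2. With all clusters tested, the count with wild type KLF11 was 1, since IFI27 had an adjusted p of 0.0548. Leaving out 1 array gave 1 to 2 with Δ486 (HERC5, and IFIT2 without the second Δ486 array), 1 to 2 with wild type KLF11 and 0 to 1 with EAPP against wild type KLF11, where the 1 gene was IFI27 and not HERC5 without the second wild type KLF11 array and without the second EAPP array. With the threshold itself unchanged, HERC5 against EV kept its call for A347S, Δ486 and wild type KLF11 in 21 of 22 alternatives each. It was lost under the plain t-test, which lacks the Bayes correction named in the methods (adjusted p = 0.145, 0.169 and 0.123). The scalings moved the median of all clusters by less than 0.1.

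With the replicate number as a block, the counts were 1 with A347S, 1 with Δ486, 0 with EAPP and 2 with wild type KLF11 against EV, and 0, 0 and 1 for A347S, Δ486 and EAPP against wild type KLF11, so no count moved. The numbers do not pair the arrays, since the deviations of same-numbered arrays correlated between -0.35 and 0.15 over 10 pairs of groups, 1 of them over 0.1. A crossed pairing of Δ486 with wild type KLF11, chosen after seeing the data, gave 0 calls.

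With 2 arrays a group, described by the methods as technical duplicates, the 95% interval of a change reached a median of 0.22 to either side, so changes under about that size could not be told from 0. The 18 genes within the range of unexpressed clusters with EV have no level below it to fall to, and a fold for them, HERC5 included, starts from that range.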
